A study of Mus musculus with 8 samples.

Results

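IEC10 cells are one immortalized line of mouse intestinal epithelium, derived from transgenic mice that carry an Mx2-Luc reporter, so every array below describes the same line. They were grown for 21 days on transwell inserts with 0.4 µm pores until polarized. Gene expression was then measured on 8 one-color Agilent arrays: 2 of untreated cells (control, replicates 2 and 3), 3 of cells given IFN-λ2 at 20 ng/mL for 9 h, and 3 of cells given IFN-β at 500 U/mL for 9 h. Described here are 10 genes that encode cytokines, cytokine antagonists or receptor chains of epithelial cells and the checkpoint ligand PD-L1: Il15, Il15ra, Il18, Il18bp, Il7, Il33, Tslp, Tgfb1, Tnfsf13b and Cd274. They were taken by their gene name in the scanner output, which gave 11 probes among the 39429 non-control probes of the array, with 2 probes for Il15ra and 1 for each other gene. All 11 probes passed the filter on low values, a signal above a floor of 15 normalized gPS units on at least 2 arrays, which 25972 probes of the array passed, and 8 of the 11 were called well above background by the scanner software on all 8 arrays. Normalized gPS units are the processed signal of the green channel, scaled so that the 75th percentile of each array is 1500.

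Type III interferons such as IFN-λ2 signal through IFNLR1 and IL-10Rβ, and type I interferons such as IFN-β through IFNAR1 and IFNAR2. Interferons act on their target genes through DNA elements that include the interferon-stimulated response element (ISRE) and the gamma-activated site (GAS). Epithelial cells of the gut use secreted and membrane-bound cytokines to address lymphocytes lying within and below the epithelial layer. IL-15, which IL-15Rα presents at the cell surface, and IL-7 sustain intraepithelial lymphocytes. IL-18 is held in check by IL-18 binding protein. IL-33 and TSLP are alarmins that act on innate lymphoid cells and mast cells, TGF-β1 is regulatory and promotes IgA switching, BAFF (Tnfsf13b) sustains B cells, and PD-L1 (Cd274) restrains T cells through PD-1.

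The array files place the Cd274 probe at chr19:29462363-29462422 (mm9, plus strand), the Tnfsf13b probe at chr8:10035561-10035620 (plus strand), and the Il15ra probes at chr2:11655416-11655475 (probe 1) and chr2:11654809-11654868 (probe 2), both on the plus strand. The promoters of 7 of the 10 genes, 10 start sites in all, were read from RefSeq (GRCm38.p6), each as 250 bases before the start. No start site was read for Il15, Il7 and Tslp. The patterns below were searched on both strands, and they overlap in part, since every match of the longer ISRE core is also a match of the shorter one. The ISRE core GAAANNGAAA was found in 2.98% of 32851 promoters of the same length, a shorter core, GAAANNGAA, in 7.13%, and the GAS core TTCNNNGAA in 7.02%. The shorter core was added after the sequences had been read. The 3 member promoters that hold a match are shown 5′ to 3′ in the direction of the gene, with the match in capitals. For Cd274 the window is chr19:29367188-29367437, for Tnfsf13b chr8:10006383-10006632, and for Il15ra chr2:11705043-11705292.
Cd274: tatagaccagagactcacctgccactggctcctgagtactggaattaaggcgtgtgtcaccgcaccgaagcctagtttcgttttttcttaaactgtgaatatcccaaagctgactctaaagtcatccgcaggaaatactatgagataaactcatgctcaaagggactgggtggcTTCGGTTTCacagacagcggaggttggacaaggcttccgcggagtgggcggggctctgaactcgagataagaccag
Tnfsf13b: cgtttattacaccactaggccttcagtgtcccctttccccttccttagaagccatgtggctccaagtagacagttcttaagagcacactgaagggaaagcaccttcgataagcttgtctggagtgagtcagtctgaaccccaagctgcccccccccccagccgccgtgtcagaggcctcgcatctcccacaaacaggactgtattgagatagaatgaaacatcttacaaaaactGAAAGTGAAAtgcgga
Il15ra: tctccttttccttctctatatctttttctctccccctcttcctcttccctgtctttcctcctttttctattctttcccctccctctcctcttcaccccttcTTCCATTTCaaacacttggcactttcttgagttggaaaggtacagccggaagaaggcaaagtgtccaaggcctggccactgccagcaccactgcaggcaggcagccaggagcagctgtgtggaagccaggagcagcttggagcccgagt

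Tnfsf13b held the whole ISRE core, on the strand of the gene, from 16 to 7 bases before the start. Cd274 and Il15ra held only the shorter core, both on the other strand, from 76 to 68 and from 149 to 141 bases before the start. The other start site of Tnfsf13b, the other one of Il15ra and the promoters of Il18, Il18bp, Il33 and Tgfb1 held no ISRE match, and no member promoter held the GAS core. A match is a run of letters and not a measured site, and no binding was measured here.

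The question put to these genes was whether cells answered both interferons alike. After IFN-λ2, 3 of the 11 probes rose (Cd274, Il33 and Il18bp) and 2 fell (Tslp and Tgfb1), against 10.0% of all probes tested called higher and 8.55% called lower. After IFN-β, Cd274 alone rose and none fell, against 1.44% and 0.208% of all probes. In the direct comparison, Cd274, Il33 and Tnfsf13b were higher under IFN-λ2 than under IFN-β, and Tslp and Tgfb1 were lower, against 5.53% and 5.68% of all probes. A call is a Benjamini-Hochberg adjusted p under 0.05 in limma over all probes tested. The comparisons of either interferon with control share the same 2 control arrays. With the normexp background correction the counts were 4 higher and 0 lower for IFN-λ2 against control, where 5.75% and 2.47% of all probes were called, and 3 higher and 0 lower against IFN-β, where 3.81% and 1.51% were. In all, 6 of the 11 probes were called in at least 1 comparison and 5 in none, and 20.6% of all probes were called in at least 1.

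The groups did not overlap for 10 of the 11 probes between IFN-λ2 and control, where 49.6% of all probes did not overlap. For IFN-β against control this held for 5 probes (26.5% of all), and for IFN-λ2 against IFN-β for 7 (32.4% of all). At an unadjusted p under 0.05 there were 7, 3 and 7 probes in the same order of comparisons, where 33.2%, 12.0% and 25.4% of all probes lay. Il15ra probe 2 is counted by either measure in both comparisons with control. Its control arrays lay below the floor, and it passed the filter on low values only through the interferon arrays. The filter thus favored its place in those counts, which carries no weight. The median log2 difference of the 11 probes was 0.36 for IFN-λ2 against control, 0.28 for IFN-β against control and 0.23 for IFN-λ2 against IFN-β, while that of all probes tested lay between -0.02 and 0.02.

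**Figure D1:**
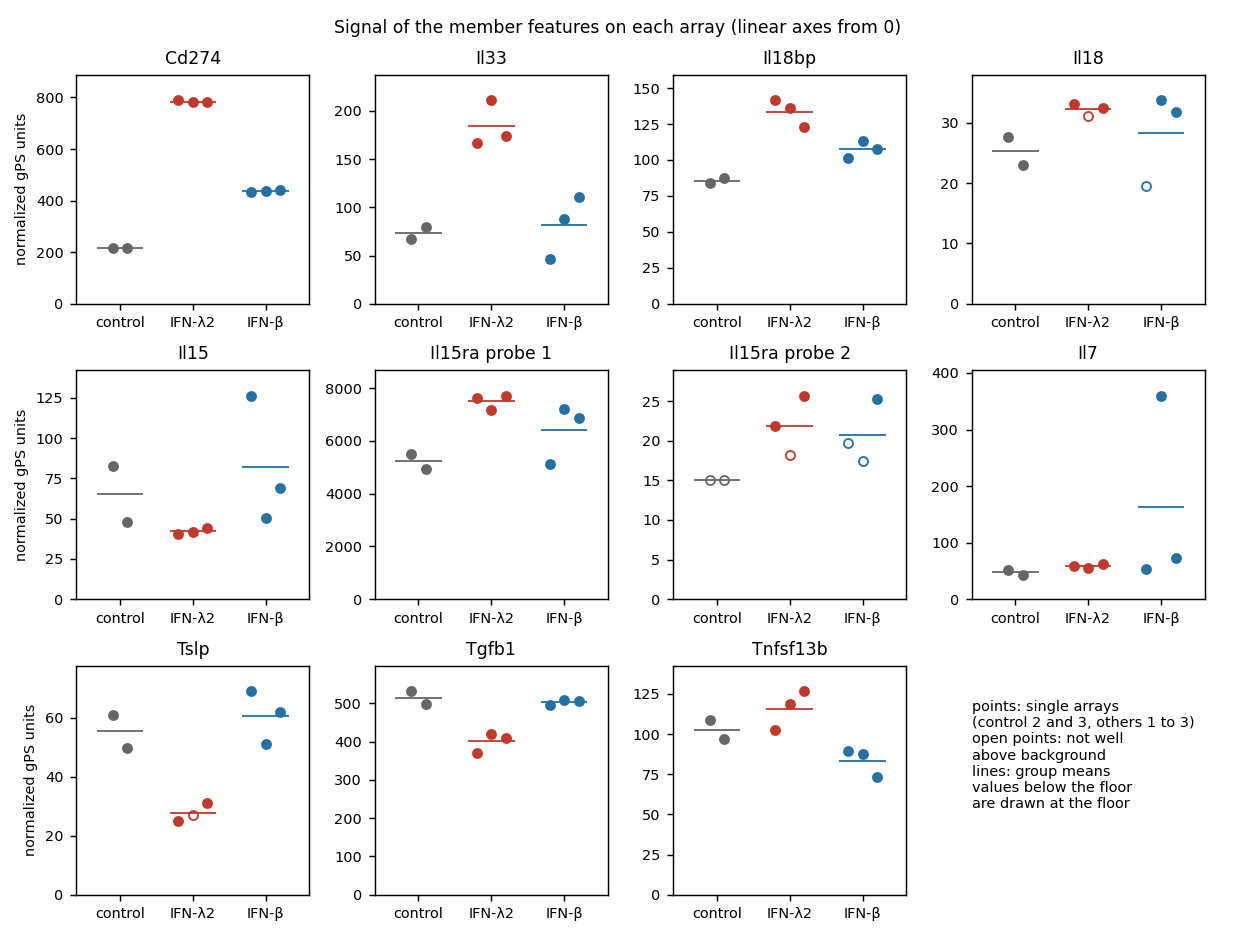
Signal of the 11 member probes in normalized gPS units on a linear axis for each array of control (gray), IFN-λ2 (red) and IFN-β (blue), with lines at the group means and open points where a probe was not well above background. Cd274 forms 3 separate levels, Tslp is low on the 3 IFN-λ2 arrays, and Il7 has 1 IFN-β array at 360.1 units.

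Cd274, which encodes PD-L1, gave 215 and 216 units on the control arrays, 790, 781 and 782 on the IFN-λ2 arrays, and 433, 437 and 441 on the IFN-β arrays. The 3 groups lay far apart and the arrays within each were nearly alike. IFN-λ2 raised it 3.64-fold over control (log2 difference 1.86, SE 0.06, limma adjusted p = 4.83e-06) and IFN-β 2.03-fold (1.02, adjusted p = 0.000122). The level under IFN-λ2 was 1.80-fold that under IFN-β (95% interval 1.65 to 1.96, limma adjusted p = 0.000333). On slides 1, 2 and 3 taken singly, the log2 difference between the interferons was 0.87, 0.84 and 0.83.

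Il33, the alarmin that signals through ST2, gave 66.8 and 79.3 units on the control arrays, 167, 211 and 174 under IFN-λ2, and 46.6, 88.3 and 111 under IFN-β. The IFN-λ2 arrays lay above all others, whereas the IFN-β arrays lay on both sides of the controls. The signal was 2.52-fold that of control after IFN-λ2 (log2 difference 1.33, SE 0.34, limma adjusted p = 0.0369) and 2.38-fold that after IFN-β (1.25, SE 0.30, adjusted p = 0.0437). After IFN-β it was 1.06-fold that of control (95% interval 0.605 to 1.85, limma adjusted p = 0.959). Both calls rested close to the threshold. They held only without IFN-β replicate 1 or 3 when single arrays were left out, and were lost without either control array, any IFN-λ2 array or IFN-β replicate 2, with limma adjusted p from 0.0508 to 0.149 against control and from 0.0701 to 0.122 against IFN-β.

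Il18bp, which encodes the soluble antagonist of IL-18, gave 83.8 and 87.4 units on the control arrays, 142, 136 and 123 under IFN-λ2, and 101, 113 and 108 under IFN-β. All IFN-λ2 arrays lay above the IFN-β arrays, and these above the controls. It rose 1.56-fold over control after IFN-λ2 (log2 difference 0.64, SE 0.09, limma adjusted p = 0.00403). After IFN-β the ratio was 1.25 (95% interval 1.08 to 1.45), which did not pass the adjustment (limma adjusted p = 0.192). The ratio of IFN-λ2 to IFN-β was 1.24 (interval 1.09 to 1.42, limma adjusted p = 0.0509) and passed in 5 of 20 alternatives: without IFN-λ2 replicate 3, with quantile normalization, a floor of 50 units, only probes well above background on at least 2 arrays, and the deposited table (adjusted p = 0.0483, 0.0425, 0.0449, 0.0467 and 0.0454).

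Il18 itself, the cytokine that this antagonist binds, was dim, with 27.6 and 22.9 units on the control arrays, 33.2, 31.2 and 32.5 under IFN-λ2, and 19.5, 33.8 and 31.8 under IFN-β. IFN-λ2 replicate 2 and IFN-β replicate 1 were not well above background. No comparison passed the test, and the ratio of IFN-λ2 to control was 1.28 (95% interval 0.876 to 1.88, limma adjusted p = 0.328).

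Tslp gave 61.1 and 49.9 units on the control arrays, 24.9, 27.0 and 31.1 under IFN-λ2, and 69.1, 51.2 and 62.0 under IFN-β. The IFN-λ2 arrays lay below all others, and the middle one was not well above background. The signal was 2.01-fold lower than in control after IFN-λ2 (SE 0.16 on the log2 scale, limma adjusted p = 0.00729) and 2.19-fold lower than after IFN-β (log2 difference -1.13, SE 0.15, adjusted p = 0.00439). IFN-β gave 1.09 times the control signal (95% interval 0.836 to 1.43, limma adjusted p = 0.815). Within slides 1, 2 and 3 the log2 difference between the interferons was -1.47, -0.92 and -0.996. This is a result on a weak probe: with the normexp background correction, which adds an offset of 50, the log2 differences were -0.05 and -0.11. With a floor of 50 units they were -0.14 and -0.27, and none of these was called. That floor lies above all IFN-λ2 values and control replicate 3, so it takes away most of the difference by construction. The median signal of negative control features ran from 3.61 to 8.07 units on the IFN-λ2 arrays, from 3.31 to 6.49 on the IFN-β arrays and from 3.63 to 4.74 on the control arrays, and its part in this result was not tested.

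Tgfb1, measured by 10 on-chip copies of its probe, gave 532 and 498 units on the control arrays, 371, 420 and 410 under IFN-λ2, and 496, 510 and 506 under IFN-β. The IFN-λ2 arrays lay below all others, and the IFN-β arrays within or next to the range of the controls. IFN-λ2 lowered it 1.29-fold against control (log2 difference -0.36, SE 0.08, limma adjusted p = 0.0211) and 1.26-fold against IFN-β (-0.33, SE 0.07, adjusted p = 0.0270). The ratio of IFN-β to control was 0.979 (95% interval 0.860 to 1.11). With the replicate number as a block, the adjusted p against control was 0.0538. With the normexp correction both calls were lost (adjusted p = 0.0871 and 0.158). The call against control was also lost without control replicate 2 or 3 or IFN-λ2 replicate 1 (limma adjusted p = 0.0916, 0.0538 and 0.0622), and that against IFN-β without IFN-λ2 replicate 1 or 3 or any IFN-β array (0.0561 to 0.0913).

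Tnfsf13b, the BAFF gene and the member with a whole ISRE core, gave 108 and 96.9 units on the control arrays, 102, 118 and 127 under IFN-λ2, and 89.2, 87.3 and 73.0 under IFN-β. The IFN-λ2 arrays overlapped the controls, and the IFN-β arrays lay below both other groups. Only the difference between the interferons was called, with 1.39-fold more signal after IFN-λ2 (log2 difference 0.48, SE 0.12, limma adjusted p = 0.0448). The ratio to control was 1.12 for IFN-λ2 (95% interval 0.908 to 1.39, limma adjusted p = 0.412) and 0.808 for IFN-β (0.652 to 1.001, adjusted p = 0.419). With the replicate number as a block the adjusted p of the direct comparison was 0.0961, and leaving out any single one of the 8 arrays gave limma adjusted p from 0.0526 to 0.130.

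**Figure D2:**
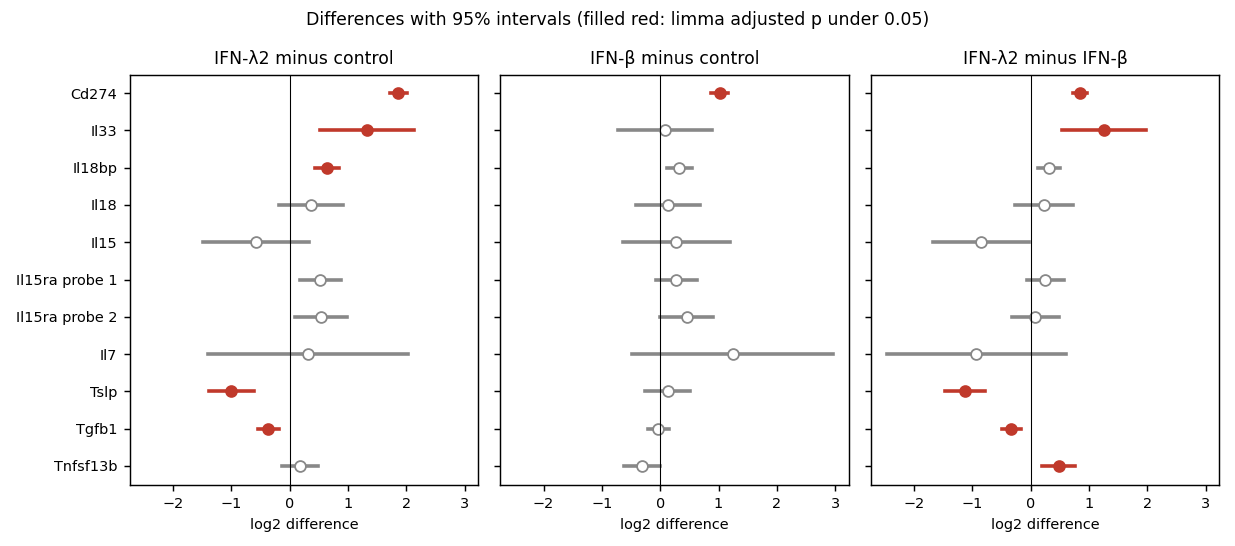
The log2 difference of each member probe in the 3 comparisons (points) with its 95% interval from limma (lines), filled red where the adjusted p was under 0.05. Cd274 is called in all 3 panels and is the only member called for IFN-β against control, while the intervals of Il7 and Il15 are the widest.

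Il15 gave 82.6 and 47.8 units on the control arrays, 40.4, 41.7 and 44.4 under IFN-λ2, and 126, 50.7 and 69.0 under IFN-β. The IFN-λ2 arrays were tightly grouped below all others, whereas the control and IFN-β arrays were spread widely. No comparison was called. IFN-β gave 1.21 times the control signal (95% interval 0.642 to 2.29, limma adjusted p = 0.834), and the signal under IFN-λ2 was 0.553 times that under IFN-β (interval 0.313 to 0.976, adjusted p = 0.181).

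Both probes of Il15ra, the presenting chain, carry the same gene name but very different sequence, shown here as a stretch of 30 of their 60 bases with an alternating repeat in capitals.
Il15ra probe 1: tatgtaTGTGTGTGTGTGTGTGtatgtaaa
Il15ra probe 2: aaaccatggaaacagtaccaatgactgtga

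Probe 1 holds 16 bases of a TG repeat. Of the 163 probes of the array with a run of at least 12 bases of alternating T and G or A and C, 155 (95.1%) were well above background on all 8 arrays, against 51.4% of all probes. It gave 5509 and 4948 units on the control arrays, 7629, 7188 and 7719 under IFN-λ2, and 5131, 7191 and 6873 under IFN-β. The IFN-λ2 arrays lay above the controls, and the IFN-β arrays reached from the control range to that of IFN-λ2. The ratio to control was 1.44 for IFN-λ2 (95% interval 1.13 to 1.84, limma adjusted p = 0.0526) and 1.21 for IFN-β (0.949 to 1.55, adjusted p = 0.533). The comparison of IFN-λ2 with control passed the threshold in 5 of 20 alternatives: without IFN-β replicate 1, with normexp, with only probes well above background on at least 2 arrays, with a trended variance prior and with only the groups compared (limma adjusted p = 0.00919, 0.0368, 0.0482, 0.0281 and 0.0230).

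Probe 2 was near background. It gave 5.56 and 7.45 units on the control arrays before they were set to the floor, 21.8, 18.2 and 25.7 under IFN-λ2, and 19.7, 17.4 and 25.2 under IFN-β. Neither control array, 2 of the 3 IFN-λ2 arrays and 1 of the 3 IFN-β arrays were well above background. Set against the lowest signals well above background on the control arrays, the mean of the 3 IFN-λ2 arrays was 1.23-fold higher. That mean includes replicate 2, which was not well above background, so the fold is no firm lower bound. No fold is given for IFN-β, where most arrays were not well above background. With the floor of 15 units limma called neither comparison with control (adjusted p = 0.100 and 0.414), and without the floor it called both, against control signals not well above background. The values under IFN-λ2 and IFN-β overlapped.

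Il7 gave 51.9 and 43.6 units on the control arrays, 59.3, 55.2 and 62.8 under IFN-λ2, and 53.8, 360 and 73.7 under IFN-β. Both interferon groups lay above the controls on every array, and IFN-β replicate 2 stood apart from the other 7 arrays. No comparison was called: the ratio of IFN-β to control was 2.37 (95% interval 0.718 to 7.80, limma adjusted p = 0.571). Without IFN-β replicate 2 the log2 difference fell from 1.24 to 0.40.

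**Figure D3:**
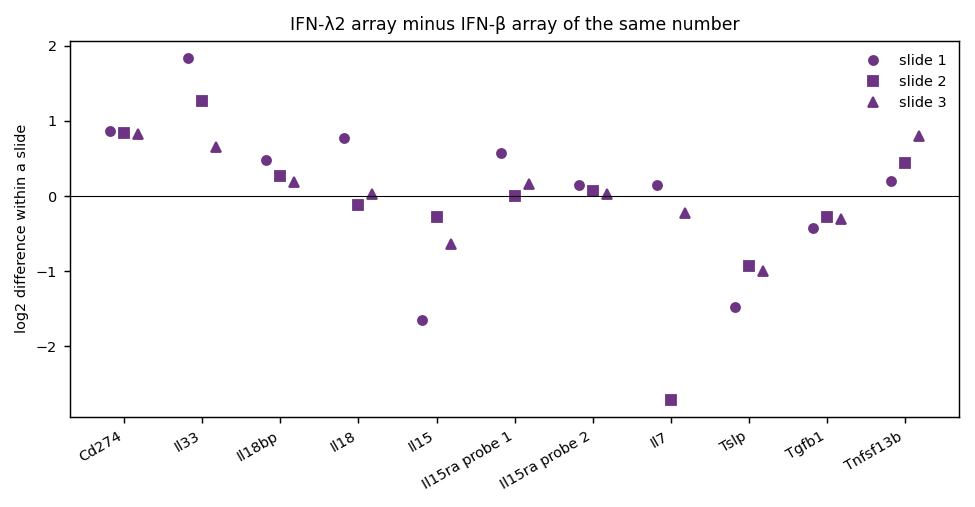
The log2 difference between the IFN-λ2 and the IFN-β array that share a replicate number and a slide, for each member probe, with 1 symbol per slide. Cd274, Il33, Il18bp, Il15ra probe 2 and Tnfsf13b are above 0 and Tslp, Tgfb1 and Il15 below 0 on all 3 slides, and Il7 reaches -2.71 on slide 2.

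The 8 arrays had scaling factors between 0.691 and 0.769 and 20991 to 24252 probes well above background, and no probe was saturated. Epithelial markers were bright, with 8 of 9 (Cdh1, Cldn4, Elf3, Epcam, Krt8, Krt18, Krt19 and Vil1) well above background on all 8 arrays and Cdx2 on none. Their summed signal was 265378 to 269583 units on the control, 301690 to 323835 on the IFN-λ2 and 267150 to 301963 on the IFN-β arrays. Of 10 leukocyte markers 4 (Cd3e, Cd68, Csf1r and Itgam) were well above background on all arrays and Itgax and Klrb1c on none, with sums of 10885 to 14419, 8640 to 10914 and 9135 to 16424 units in the same order of groups. None of 6 fibroblast markers was well above background on all arrays (sums of 116 to 125, 109 to 112 and 135 to 158 units), and of 4 endothelial markers only Kdr was (828 to 1012, 829 to 979 and 919 to 953 units). After IFN-λ2, 3 of the 9 epithelial markers were called (Cdh1, Cldn4 and Krt19, 2 higher and 1 lower), against 10.0% and 8.55% of all probes, and after IFN-β none, against 1.44% and 0.208%. No leukocyte, fibroblast or endothelial marker was called in either comparison with control. All arrays are of the same cell line, so these marker signals were not read as shares of cell types.

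Other genes of the same pathways were described from lists by the number of probes called, beside the shares over all probes given above. Among checkpoint ligands and their partners, 3 of 20 tested probes rose after IFN-λ2 and 3 fell, and 2 rose after IFN-β. Lgals9, the galectin-9 gene whose product is a TIM-3 ligand, went from 689 ± 5.27 units in control (SD, n = 2) to 5490 ± 313 under IFN-λ2 (n = 3) and 4920 ± 326 under IFN-β (n = 3), with limma adjusted p = 3.04e-06 and 5.76e-06. Cd276 (B7-H3), Nectin2 and Pvr, the last pair being ligands of the receptors DNAM-1 and TIGIT, fell 1.65-fold, 1.61-fold and 1.39-fold after IFN-λ2 (limma adjusted p = 0.00257, 0.0124 and 0.0418). Cd47, the signal against phagocytosis, rose 1.33-fold after IFN-β (limma adjusted p = 0.0404). Between the interferons, Cd276 was 1.29-fold lower and Cmtm4, a PD-L1 stabilizer, 1.17-fold higher under IFN-λ2, the single probe called in each direction.

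Of 20 tested probes of the IL-1 family, its receptors and its processing, 6 rose and 2 fell after IFN-λ2, and 3 rose after IFN-β. Il1f6, the IL-36α gene, rose 3.56-fold under IFN-λ2 and 1.92-fold under IFN-β (limma adjusted p = 5.31e-05 and 0.00344) and was 1.86-fold higher under IFN-λ2 than under IFN-β (adjusted p = 0.00164), from a control mean of 18.5 units near the floor. Il1rl1, which encodes the IL-33 receptor ST2, went from 473 ± 16.1 units in control (SD, n = 2) to 950 ± 121 under IFN-λ2 (n = 3), a rise of 2.00-fold (limma adjusted p = 0.00621), and was 1.48-fold higher under IFN-λ2 than under IFN-β (adjusted p = 0.0451). Il1rn, the antagonist of the IL-1 receptor, rose 1.83-fold after IFN-λ2 and was 1.47-fold higher than under IFN-β (limma adjusted p = 0.00402 and 0.0199). Casp4 (caspase-11, a sensor of cytosolic LPS) rose 1.73-fold and 1.70-fold, and Il1r1 was 1.44-fold lower under IFN-λ2 than under IFN-β (limma adjusted p = 0.0129). The list's median log2 difference was 0.36 for IFN-λ2 and 0.28 for IFN-β, against 0.00 and 0.02 over all probes.

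Of 30 tested probes for TGF-β activation and receptors, 3 rose and 5 fell after IFN-λ2, 1 rose after IFN-β, and 6 were lower under IFN-λ2 than under IFN-β with none higher. Tgfbi, a matrix gene that TGF-β induces, fell 2.86-fold after IFN-λ2, and Tgfb2, another TGF-β ligand, 1.78-fold (limma adjusted p = 0.00264 and 0.0286). Lrrc32 (GARP), which anchors latent TGF-β at the cell surface, fell 1.52-fold after IFN-λ2 (limma adjusted p = 0.0368). Against IFN-β these 3 were 3.08-fold, 1.63-fold and 2.08-fold lower, and Tgfb3 2.09-fold lower (limma adjusted p = 0.00216, 0.0480, 0.00446 and 0.0285). Thbs1, which encodes thrombospondin-1, an activator of latent TGF-β, moved the other way and rose 1.88-fold under IFN-λ2 and 1.64-fold under IFN-β (limma adjusted p = 0.00363 and 0.0457).

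Of the BAFF and APRIL list, 5 probes were tested and Sdc1 (syndecan-1, which binds APRIL) fell 1.30-fold after IFN-λ2 (limma adjusted p = 0.0255). It was also 1.28-fold lower under IFN-λ2 than under IFN-β (adjusted p = 0.0290), and no probe of the list was called after IFN-β. Of 14 probes for the receptors of IL-15, IL-7 and TSLP and related cytokines only 3 passed the filter on low values, and none was called in any comparison.

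Among other cytokines that epithelial cells can make, 3 of 22 probes rose and 1 fell after IFN-λ2, and 1 rose after IFN-β. Ifnb1, the gene of IFN-β itself, went from 36.2 ± 3.42 units in control (SD, n = 2) to 150 ± 35.4 under IFN-λ2 (n = 3) and was 2.42-fold higher than under IFN-β (limma adjusted p = 0.0174). Il24 rose 2.73-fold after IFN-λ2 and was 2.06-fold higher than under IFN-β (limma adjusted p = 0.00565 and 0.0180), while Il23a, the p19 chain of IL-23, fell 1.99-fold after IFN-λ2 (adjusted p = 0.0110). Csf1, the macrophage growth factor, rose 1.58-fold and 1.62-fold on its brightest probe (limma adjusted p = 0.00741 and 0.0274), and a dimmer Csf1 probe was 1.47-fold lower under IFN-λ2 than under IFN-β (adjusted p = 0.0123). Csf3 was 1.35-fold lower under IFN-λ2 than under IFN-β (limma adjusted p = 0.0227).

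Among interferon signal factors, 7 of 20 probes rose with each interferon, and 1 fell after IFN-λ2. Usp18, which restrains type I signaling, rose 13.6-fold and 11.8-fold, and Irf7 12.7-fold and 14.4-fold, under IFN-λ2 and IFN-β (limma adjusted p from 3.67e-06 to 1.13e-05). Stat2 rose 4.47-fold under IFN-λ2 and Irf9 3.82-fold under IFN-β. The only probe of this list called between the interferons was that of Socs3, 1.39-fold lower under IFN-λ2 (limma adjusted p = 0.00869).

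**Figure D4:**
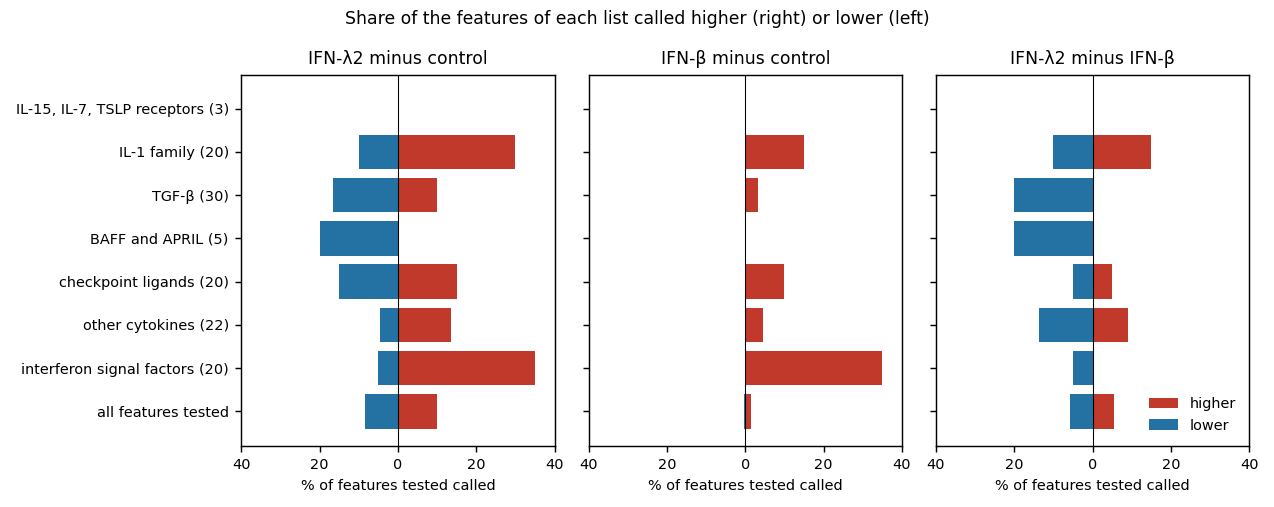
Share of the tested probes of 7 lists, with the number of probes in brackets, and of all probes tested, that limma called higher (red, right) or lower (blue, left) in each comparison, in percent. The interferon signal factors stand at 35.0% higher with both interferons, and the TGF-β list at 20.0% lower under IFN-λ2 than under IFN-β.

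The genes whose log2 signal ran most like that of the called members over the 8 arrays were looked up among 20248 probes well above background on all of them. Tslp was left out, since it was not well above background on 1 array. For Cd274 they were Hmga1, Mb and Rbx1 (Pearson r = 0.999, 0.997 and 0.996), and for Il18bp Omp, Neu2 and Bmp2 (0.990, 0.988 and 0.988). For Il33 they were 2310039H08Rik, Comtd1 and Ppil1 (0.984, 0.983 and 0.979). Tgfb1 ran closest to Col4a2, Cers4 and Wnt5a (0.992, 0.991 and 0.991), and Tnfsf13b to Rpap2, Ampd1 and 2700097O09Rik (0.956, 0.954 and 0.946). These are the highest of many values, from 8 points that share the same 3 groups and slides, and describe these arrays alone.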

How the data were processed

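Total RNA of 8 samples was labeled and hybridized to 1-color Agilent mouse arrays (the methods name an RNeasy kit for extraction, the sample labels Trizol). The authors scanned them with Feature Extraction 10.7.3.1 and deposited, per array, the background-subtracted processed intensity of every feature before scaling, with coordinates on mm9. The authors also deposited a table of intensity values scaled between arrays, used as an alternative (for members above the floor, 0.909 to 0.928 of the units given here).

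Following the stated methods, features were left out if flagged, marked as outliers, beyond 1.42 interquartile ranges among replicate spots, or with a pixel coefficient of variation over 0.5 (313 to 424 features per array). Spots of one probe were averaged geometrically, each array was scaled so that its 75th percentile was 1500, values below 15 were raised to 15, and log2 was taken. Probes above 15 on at least 2 arrays were tested. One linear model with 3 groups covered the 8 arrays in limma 3.58.1 (R 4.3.3), with Benjamini-Hochberg adjustment at 0.05 over all probes, and checked on simulated data. Where no array of a group had a probe well above background, the fold was set against the lowest signal well above background of each array. It is a lower bound only if every array of the brighter group was well above background. The number of arrays limits the precision. Python 3.11.15 with pandas 2.3.3 and numpy 2.4.6 made the tables.

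The members and the gene lists were chosen with earlier results of these data known. Every member probe is given; from each list up to 4 genes per comparison are named, those with the largest difference among called probes. Groups and replicate numbers come from the labels. Replicate 1 of the control was not analysed here. The sources do not say that arrays came from separate experiments, so p-values measure only the spread between these samples. A replicate number marks a slide, and each group has its own position on every slide, so position and group cannot be told apart. Same-numbered IFN-λ2 and IFN-β arrays deviated together from their group means (r = 0.178, 0.255 and 0.297 for replicates 1, 2 and 3), so these numbers pair the interferon arrays, while control arrays correlated with their numbers at -0.06 to 0.10. Alternatives covered background correction, quantile normalization, floor, filters, the deposited table, feature exclusion, replicate block, leaving out single arrays, samples fitted and variance prior. A t-test with equal variances was also run. Since the methods do not name the test of their comparison of 2 groups, it only takes over their threshold of p under 0.001.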

Additional observations from a re-analysis of the deposited data

How the results depend on the processing

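Over the adjusted tests of 20 alternatives, Cd274 was called in all 3 comparisons each time, with log2 differences of 1.67 to 1.89 (IFN-λ2 against control), 0.86 to 1.03 (IFN-β against control) and 0.81 to 0.86 (IFN-λ2 against IFN-β). Il18bp was called for IFN-λ2 against control in 19, Tslp in 17 (18 against IFN-β), Tgfb1 in 13 in both comparisons, Il33 in 11 and 9, and Tnfsf13b against IFN-β in 5. For IFN-λ2 against control, 5 member probes were called as reported (18.6% of all probes called) and 3 with a floor of 50 units (17.9%). The t-test with equal variances called 1 after Benjamini-Hochberg (6.18%) and also at p under 0.001 (2.94%). When single arrays were left out, 3 to 6 were called. For IFN-β against control there were 2 with no floor (1.53%, against 1.65% as reported). For IFN-λ2 against IFN-β there were 5 as reported (11.2%). There were 3 with normexp (5.32%), no floor (11.0%), a floor of 50 (10.8%), no filter (6.04%) or only the groups compared (10.6%). The t-test called 2 after adjustment (6.77%) and 1 at p under 0.001 (3.45%), and leaving out single arrays gave 2 to 3. The methods' additional fold cutoff was not applied in these counts of the t-test. The causes were not tested. With the replicate block the counts were 4, 1 and 4: the calls of Tgfb1 against control (log2 difference -0.33, limma adjusted p = 0.0538) and Tnfsf13b against IFN-β (0.48, adjusted p = 0.0961) were lost and no other call changed, and the log2 difference of Tgfb1 for IFN-β against control turned to 0.0013. The search for the shorter ISRE core, added after the data were seen, matched 3 member promoters in place of 1. When single arrays were left out, uncalled log2 differences changed sign for IFN-β against control in Il15 (-0.12 to 0.67), Il18 (-0.0155 to 0.38), Il33 (-0.18 to 0.44), Tslp (-0.0199 to 0.27) and Tgfb1 (-0.0783 to 0.0161), and for IFN-λ2 against IFN-β in Il15ra probe 2 (-0.0417 to 0.23) and Il18 (-0.0233 to 0.37). With a floor of 50 units, Il18 and Il15ra probe 2 have no value. The lowest signal well above background was 14.7 to 33.1 units per array.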
